A study of Arabidopsis thaliana with 6 samples.

Results

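The 10 genes described here encode 3-ketoacyl-CoA synthases of Arabidopsis thaliana (KCS1, KCS2, KCS3, KCS4, KCS5, KCS6, KCS8, KCS9, KCS10 and KCS20). They were taken by gene identifier from tables of 32744 genes, in a family of which 11 further genes are present, and they were chosen with results of the same genotype comparison known. Their differences between genotypes are therefore given as a description, with no p-value; their calls in the fit across all genes are counted only beside the share of all genes called. Total RNA from seedlings at Boyes growth stage 1.04, grown on media without treatment, was depleted of ribosomal RNA and sequenced in 6 stranded, single-end libraries. The control group was 3 libraries labelled wild type. The other group was 3 libraries whose genotype label is a double mutant (title mtran1-2-2-1) in AT4G15640 together with AT3G21465, genes that the series title places among uncharacterised mitochondrial proteins. Beyond the title mtran1-2-2-1, the labels describe no alleles, insertion sites or accession for either genotype. They do not say whether each library had its own plants. The titles number 3 libraries per genotype while the design text speaks of 2 biological replicates, so p-values reflect only how far these libraries scatter, and that scatter may be technical.

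A 3-ketoacyl-CoA synthase is the condensing enzyme of the fatty acid elongase of the endoplasmic reticulum. It joins an acyl-CoA to malonyl-CoA, and a reductase, a dehydratase and a second reductase then complete the added carbon pair. The synthase sets which chain lengths are made, and its products become cuticular waxes of the epidermis, suberin of the root endodermis and seed coat, storage oil of the seed, and the long acyl chains of sphingolipids and some phospholipids.

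The condensation runs through an active-site cysteine, and all 10 coding sequences carry a cysteine codon where they align with the catalytic cysteine of FAE1 (KCS18), the seed oil elongase. The 33 bases around that codon were read from the TAIR10.1 genome in the direction of transcription, with the cysteine codon in capitals, to show how far the genes differ at the most conserved step of the enzyme:
KCS1: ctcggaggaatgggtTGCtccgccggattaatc
KCS2: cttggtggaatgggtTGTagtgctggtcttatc
KCS20: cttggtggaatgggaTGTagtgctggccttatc
KCS9: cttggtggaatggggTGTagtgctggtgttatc
KCS8: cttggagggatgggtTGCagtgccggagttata
KCS4: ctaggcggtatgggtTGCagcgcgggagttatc
KCS10: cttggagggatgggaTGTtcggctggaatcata
KCS5: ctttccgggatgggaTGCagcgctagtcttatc
KCS6: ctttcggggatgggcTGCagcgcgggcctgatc
KCS3: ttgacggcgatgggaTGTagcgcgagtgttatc
The windows of KCS4 and KCS8 differed from that of KCS1 at 8 of 33 bases, and the window of KCS3 differed from it most, at 16. Across the whole coding sequence KCS3 also stood apart. Its identity to the other 9 genes was lowest with KCS10, at 49.1% of bases in aligned codons, the lowest of any pair among the 10. KCS2 and KCS20 were the closest pair at 83.6%, KCS5 and KCS6 followed at 81.2%, and KCS4 and KCS9 at 73.7%. The submitters counted a read with several alignments at every one of them, so near-identical stretches can add counts to both genes. KCS2 and KCS20 were the only pair among the 10 with a shared exact stretch of at least 50 bases (longest run 53), and the longest run shared by KCS5 and KCS6 was 23 bases.

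**Figure D1:**
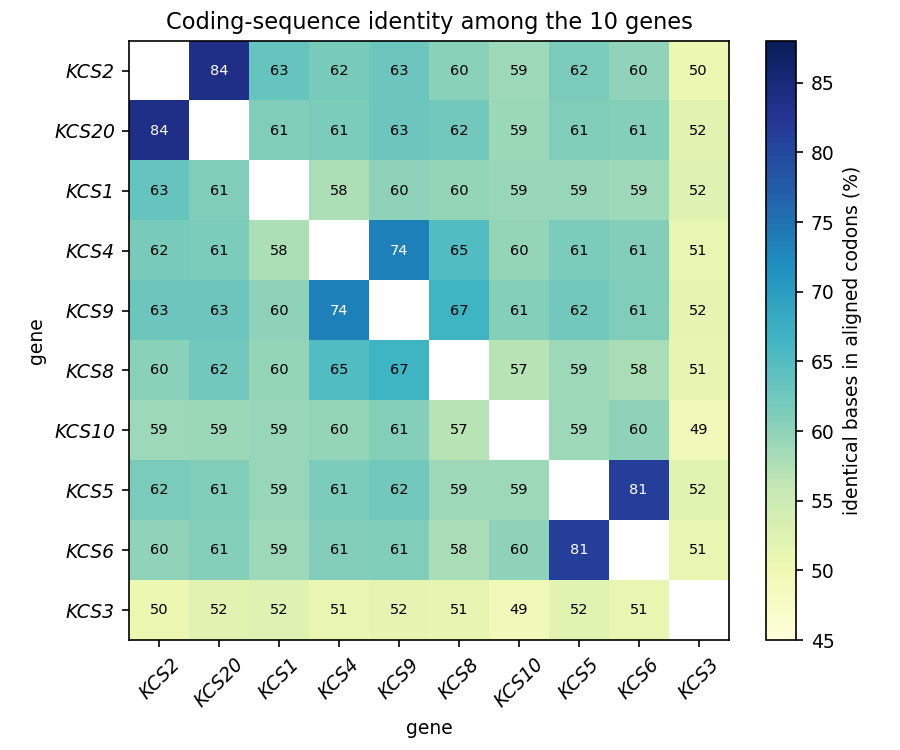
Percentage of identical bases in aligned codons for every pair of the 10 coding sequences (colour scale and printed value, diagonal blank). The KCS2 and KCS20 pair and the KCS5 and KCS6 pair are the darkest cells at 83.6% and 81.2%, and the KCS3 row is the palest.

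Library totals ran from 53193772 to 78671470 counts, of which the 10 genes held 23445 to 37571 per library. Nuclear genes held 41.0% to 43.3% of counts in wild type and 46.7% to 51.3% in the labelled mutant libraries, and plastid genes 55.2% to 57.3% and 44.1% to 49.0%. Levels are CPM (counts scaled to a common library total), on totals adjusted by TMM, which sets the median gene close to no difference. With unadjusted totals the median log2 fold change over all tested genes moved up by 0.32. AT3G21465 was lower in the labelled mutant libraries (4.61 ± 0.255 CPM against 7.92 ± 0.4997 CPM, SD, n = 3 each, log2 fold change -0.78 ± 0.08 SE, adjusted p = 8.95e-05), with 340 to 385 counts per library remaining. AT4G15640 was not lower, at 13.4 ± 0.725 CPM against 12.0 ± 1.07 CPM (SD, n = 3 each, log2 fold change 0.16 ± 0.08, adjusted p = 0.121). Without wild type library 2 it was called higher (0.24, adjusted p = 0.0338), as it was with unadjusted totals (0.49, adjusted p = 0.00182). The label names a genotype and not a transcript level, so this level does not decide whether the gene is mutated. The group is called the libraries labelled double mutant throughout.

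In the libraries labelled double mutant, 7 of the 10 genes were lower, KCS6 alone was higher, and KCS2 and KCS3 were not called by edgeR's quasi-likelihood test at an adjusted p of 0.05. In the same fit 52.4% of 21805 tested genes were called, 26.3% higher and 26.0% lower. All 10 genes passed the filter on low counts. Their median log2 fold change was -0.77 and their range -2.11 to 0.41, beside a median of 0.01 over all tested genes. The groups' libraries did not overlap for 8 of the 10 genes, against 61.8% of all tested genes. Because the genes were chosen on this comparison, nothing is read from these counts. In whole seedlings fewer cells of a type and less RNA per cell cannot be told apart.

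**Figure D2:**
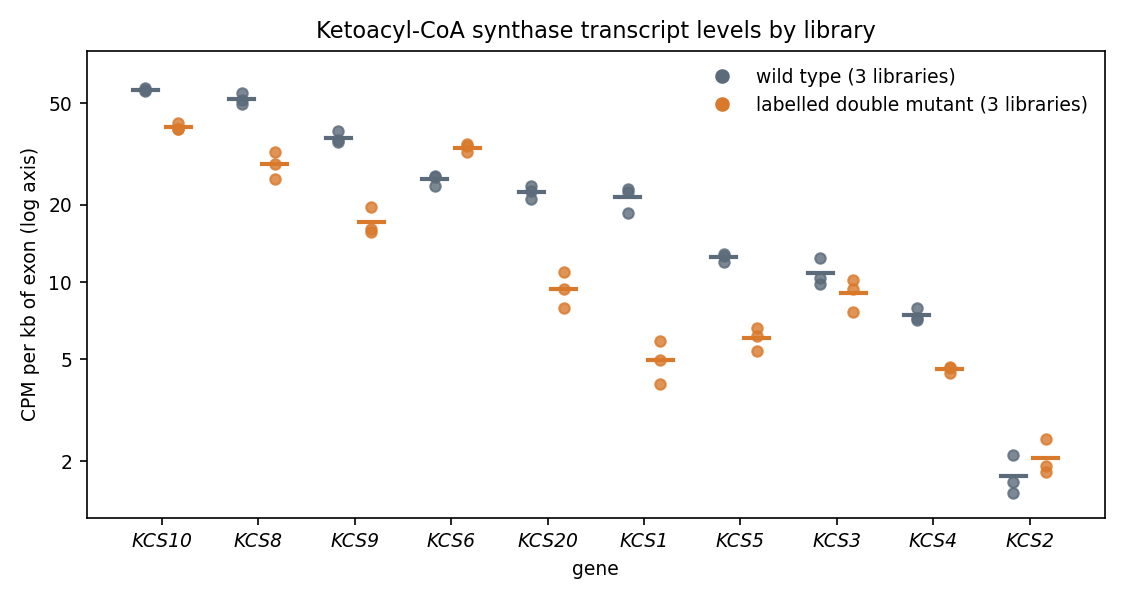
Transcript level of each of the 10 genes in every library, as CPM per kb of exon on a log axis, with wild-type and labelled mutant libraries as separate points. KCS10 is the most abundant in both groups, KCS2 the least, and KCS6 is the gene whose labelled mutant points all lie above its wild-type points without overlap.

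KCS1 (AT1G01120, chr1:57164-59215 on TAIR10, minus strand) acts in wax synthesis and had the largest difference of the 10. It stood at 47.5, 38.0 and 46.3 CPM in wild type and at 10.2, 12.1 and 8.20 CPM in the labelled mutant libraries, a log2 fold change of -2.11 ± 0.14 (SE) that left 23.1% of the wild-type mean. Every labelled mutant library lay far below the lowest wild-type library, and wild type library 2 was the low one of its group.

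KCS20 (AT5G43760, chr5:17585523-17588733, plus strand) and KCS2 (AT1G04220, chr1:1119699-1122786, minus strand) act redundantly in wax and root suberin synthesis. KCS20 was at 46.6, 50.3 and 52.4 CPM in wild type and at 20.8, 24.2 and 17.6 CPM in the labelled mutant libraries, a log2 fold change of -1.25 ± 0.11. Its groups lay well apart. KCS2, the least abundant of the 10, was at 4.32, 3.06 and 3.38 CPM in wild type and at 4.99, 3.72 and 3.90 CPM in the labelled mutant libraries, a log2 fold change of 0.24 ± 0.16. Its groups overlapped, since wild type library 1 lay above 2 labelled mutant libraries, and it rested on only 203 to 407 counts per library. With unadjusted totals KCS2 was called higher (log2 fold change 0.55). On a per-length scale, the level of KCS20 was 13.1 ± 2.79 times that of KCS2 in wild type and 4.67 ± 1.17 times (SD, n = 3 each) in the other group, with the ratio lowest in library 1 of both groups. The exons of KCS2 overlap those of AT1G04210 and AT1G04247 on the opposite strand, which the stranded counting keeps apart.

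KCS6 (CER6, AT1G68530, chr1:25712414-25715024, minus strand) is the main condensing enzyme for stem and pollen wax, and KCS5 (CER60, AT1G25450, chr1:8938387-8940613, minus strand) is its nearest relative. KCS6 was at 68.0, 62.0 and 67.1 CPM in wild type and at 90.0, 88.7 and 83.8 CPM in the labelled mutant libraries, a mean 1.33-fold higher (log2 fold change 0.41 ± 0.06). All 3 labelled mutant libraries exceeded all 3 wild-type libraries. KCS5 was at 27.2, 26.7 and 25.2 CPM in wild type and at 12.97, 14.0 and 11.3 CPM in the labelled mutant libraries, a log2 fold change of -1.05 ± 0.08, so the closest relatives differed in opposite directions. The per-length ratio of KCS6 to KCS5 was 2.02, 1.87 and 2.14 in wild type and 5.59, 5.12 and 5.98 in the labelled mutant libraries. This ratio does not depend on how the library totals are scaled, and its groups were far apart.

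KCS9 (AT2G16280, chr2:7050799-7052951, plus strand) supplies chains for waxes, suberin and membrane sphingolipids. It was at 77.1, 75.5 and 83.5 CPM in wild type and at 33.9, 42.3 and 34.6 CPM in the labelled mutant libraries, a log2 fold change of -1.09 ± 0.09. KCS4 (AT1G19440, chr1:6728747-6730931, plus strand), the member most like KCS9 in sequence, was at 15.8, 17.2 and 15.5 CPM and at 10.1, 10.2 and 9.67 CPM, a log2 fold change of -0.70 ± 0.07. For both genes the groups stayed apart, and the labelled mutant libraries of KCS4 were nearly equal to each other. KCS8 (AT2G15090, chr2:6542166-6544118, plus strand) was at 100.1, 96.8 and 107 CPM in wild type and at 49.5, 62.9 and 56.6 CPM in the labelled mutant libraries, a log2 fold change of -0.85 ± 0.09. Its lowest wild-type library was above its highest labelled mutant library.

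KCS10 (FIDDLEHEAD, AT2G26250, chr2:11170416-11173278, minus strand) is expressed in the epidermis and keeps young organs from fusing. It was at 127, 126 and 128 CPM in wild type and at 89.0, 94.5 and 89.2 CPM in the labelled mutant libraries, a log2 fold change of -0.48 ± 0.06, the smallest among the 7 lower genes. The groups did not overlap, and the wild-type libraries were closer to each other in proportion than for any other member. With unadjusted totals its log2 fold change was -0.16 and it was not called. KCS3 (AT1G07720, chr1:2390531-2392628, minus strand), reported to restrain KCS6 in wax synthesis, was at 26.0, 20.6 and 21.7 CPM in wild type and at 21.3, 19.6 and 16.1 CPM in the labelled mutant libraries. Its log2 fold change of -0.25 ± 0.12 came with overlapping groups and turned to 0.06 with unadjusted totals.

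Per length, the order of the genes differed between the groups. In wild type KCS10 led at 56.3 ± 0.566 CPM per kb of exon (SD, n = 3), then KCS8 at 51.8 ± 2.59, KCS9 at 36.6 ± 1.96 and KCS6 at 25.2 ± 1.24, and no neighbours among these 4 overlapped. KCS20 at 22.4 ± 1.32 overlapped KCS1 at 21.4 ± 2.50, and KCS5 at 12.5 ± 0.481 overlapped KCS3 at 10.8 ± 1.35. KCS4 at 7.40 ± 0.423 and KCS2 at 1.75 ± 0.319 closed the order. In the libraries labelled double mutant KCS10 again led, at 40.3 ± 1.39, and KCS6 came next at 33.5 ± 1.25, overlapping KCS8 at 28.8 ± 3.45. KCS9 was at 17.2 ± 2.15, and KCS20 at 9.41 ± 1.49 overlapped KCS3 at 9.06 ± 1.28. KCS1, among the upper 6 genes in wild type, was at 4.94 ± 0.944 and overlapped both KCS5 at 6.06 ± 0.644 and KCS4 at 4.56 ± 0.120.

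The summed level of the 10 genes was 248, 237 and 253 CPM per kb in wild type and 153, 167 and 148 CPM per kb in the labelled mutant libraries, or 63.3% of the wild-type mean. It was 79.2% with unadjusted library totals and 68.0% with totals of nuclear genes only. The 10 genes made up 86.6% to 87.7% of the summed level of all 21 KCS genes in wild type and 85.9% to 86.0% in the labelled mutant libraries, so they carried most of the family in both. The share of KCS6 was 9.19%, 8.67% and 8.90% in wild type and 19.4%, 17.5% and 18.6% in the labelled mutant libraries. KCS10 went from 19.98% ± 0.368 to 22.2% ± 0.713, while KCS1 went from 7.58% ± 0.727 to 2.71% ± 0.358 and KCS9 from 12.96% ± 0.414 to 9.43% ± 0.626 (SD, n = 3 each). The family's transcripts in the labelled mutant libraries were thus made up more of KCS6 and less of KCS1, KCS9 and KCS20, the last at 5.16% ± 0.513 against 7.96% ± 0.471. Mean shares were also lower for KCS8 (15.9% against 18.4%), KCS5 (3.33% against 4.45%) and KCS12 (1.30% against 2.38%). They were higher for KCS2 (1.14% against 0.621%), KCS3 (4.99% against 3.84%), KCS16 (3.41% against 2.34%) and KCS19 (4.77% against 3.38%). A share can rise because other members are lower, and shares do not depend on the scaling of the totals.

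**Figure D3:**
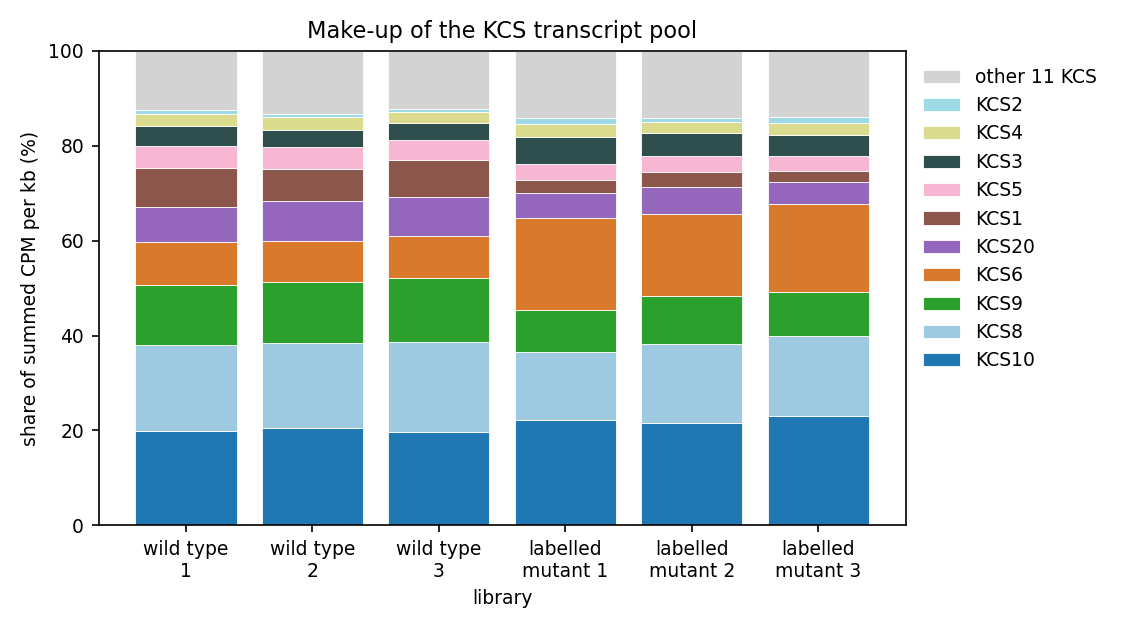
Share of each of the 10 genes, and of the other 11 KCS genes together, in the summed CPM per kb of the family, as 1 stacked bar per library. The KCS6 segment covers 8.67% to 9.19% in the wild-type libraries and 17.5% to 19.4% in the labelled mutant libraries.

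The other 11 genes of the family are those left after the choice of the 10, and 7 of them could be tested. That choice was made with earlier results of these data known, so they are not an independent check on the 10. None was called higher, 5 fell and 2 were not called, with a median log2 fold change of -0.66. Of all tested genes, 26.3% were called higher and 26.0% lower. KCS12, the nearest relative of KCS3, fell from 16.5 ± 1.40 to 5.80 ± 1.10 CPM (log2 fold change -1.50 ± 0.13, adjusted p = 2.87e-05). KCS11 fell from 18.3 ± 1.55 to 12.2 ± 0.709 CPM (-0.59 ± 0.08, adjusted p = 0.000337), and KCS17, the nearest relative of KCS9, fell from 1.14 ± 0.106 to 0.729 ± 0.0903 CPM (-0.66 ± 0.17, adjusted p = 0.0116) but was not called with unadjusted totals (adjusted p = 0.162). KCS13 (HIC, which acts on stomatal density) and KCS14 both fell (-0.79 ± 0.09 and -0.75 ± 0.12, adjusted p = 0.000163 and 0.000979). Their coding sequences are 98.9% identical with an unbroken run of 347 bases, so counts of either can include reads of the other. KCS16, the nearest relative of KCS8, and KCS19 were not called (-0.10 ± 0.06 and -0.14 ± 0.09, adjusted p = 0.224 and 0.215). With unadjusted totals both turned positive, and KCS16 was then called (0.23, adjusted p = 0.0498). KCS7 and KCS15 had at most 4 counts in a library. KCS18, the seed oil elongase FAE1, and KCS21 had 0 counts in every library, which allows up to 0.0367 to 0.0619 CPM per library (3 counts, for counting error only).

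**Figure D4:**
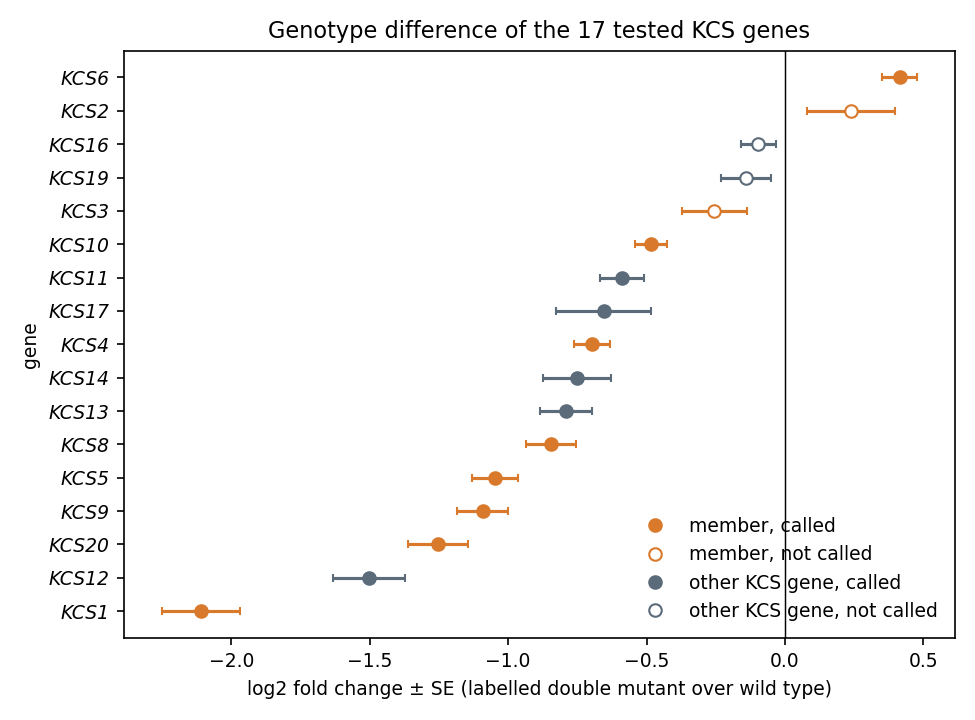
Log2 fold change of the labelled mutant libraries over wild type, with SE bars, for the 17 KCS genes that could be tested (orange, the 10 genes; grey, others; open points not called at an adjusted p of 0.05). KCS6 and KCS2 are the only points right of 0, and KCS1 lies farthest left at -2.11.

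The genes around the synthases were taken from lists by role, chosen with earlier results of these data known, and are given by their calls in the same fit, to be read against the 26.3% of all tested genes called higher and 26.0% called lower. The list of elongase partners held 13 genes, for other elongase subunits, helpers of condensation, acetyl-CoA carboxylases and acyl-CoA synthetases. Of these, 4 rose, 3 fell and 6 were not called, with a median log2 fold change of -0.06. Their median lay close to that of all tested genes. ACC2, a plastid-targeted acetyl-CoA carboxylase, rose from 7.52, 8.15 and 7.65 CPM to 35.4, 33.9 and 34.7 CPM (log2 fold change 2.16 ± 0.06, adjusted p = 2.1e-07). It shares sequence with ACC1, the cytosolic enzyme that supplies malonyl-CoA for elongation, so its counts can include reads of ACC1. ACC1 itself was not called, at 133 ± 1.18 CPM in wild type and 142 ± 12.6 CPM in the labelled mutant libraries (0.08 ± 0.07, adjusted p = 0.371). PAS1, a scaffold of the elongase, rose from 22.1 ± 0.467 to 30.7 ± 1.48 CPM (0.47 ± 0.06, adjusted p = 0.000198). CER26, a helper of KCS6-type elongation to the longest chains, rose by 0.42 ± 0.09 on the log2 scale (adjusted p = 0.00524), and LACS2, an acyl-CoA synthetase for cutin, by 0.30 ± 0.07 (adjusted p = 0.0053). The acyl-CoA synthetase LACS1 fell by 0.27 ± 0.06 on the log2 scale (adjusted p = 0.00482), the dehydratase PAS2 by 0.26 ± 0.07 (adjusted p = 0.0166) and the enoyl-CoA reductase CER10 by 0.19 ± 0.06 (adjusted p = 0.0241). With unadjusted totals these 3 turned to 0.052, 0.062 and 0.133 and none was called. Without wild type library 2, PAS2 and CER10 lost their calls (adjusted p = 0.0522 and 0.0763) and 1 partner was called lower. CER10 also lost its call without labelled mutant library 2 or 3 (adjusted p = 0.0653 and 0.0837).

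Downstream of elongation, 4 of 6 tested wax-forming enzymes fell, none rose and 2 were not called, with a median of -0.76, where 26.0% of all tested genes were called lower. CER1 and CER3, which together form alkanes, fell from 39.9 ± 5.43 to 25.1 ± 3.63 CPM (-0.67 ± 0.12, adjusted p = 0.00186) and from 40.1 ± 2.92 to 22.3 ± 1.44 CPM (-0.85 ± 0.07, adjusted p = 3.12e-05). CER4, the reductase that makes primary alcohols, fell from 97, 55 and 67 counts to 26, 15 and 9 counts (-2.54 ± 0.43, adjusted p = 0.00122), and AT1G02190 fell by 1.97 ± 0.51 on the log2 scale from a low level (adjusted p = 0.0106). Of 6 genes of lipid export, 4 fell and 1 rose, with a median of -0.33. The lipid transfer proteins LTPG1 and LTPG2 fell (-0.82 ± 0.05 and -1.28 ± 0.08, adjusted p = 5.86e-06 and 4.48e-06), as did the transporters ABCG13 (-0.43 ± 0.09, adjusted p = 0.00463) and ABCG32 (-0.22 ± 0.06, adjusted p = 0.0112), whereas ABCG11, a transporter of wax and cutin, rose by 0.30 ± 0.05 (adjusted p = 0.00146). ABCG32 was not called without labelled mutant library 3 (adjusted p = 0.0569), and with unadjusted totals it turned to 0.10 and ABCG13 was not called (adjusted p = 0.459). With unadjusted totals the export counts were 2 lower and 2 higher.

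Of 13 cutin genes, 6 fell, 3 rose and 4 were not called, with a median of -0.18. The acyltransferase GPAT8 fell from 28.7 ± 1.79 to 14.2 ± 0.236 CPM (-1.01 ± 0.06, adjusted p = 5.53e-06), HTH, whose loss fuses floral organs, fell by 0.80 ± 0.08 on the log2 scale (adjusted p = 5.04e-05), and the fatty acid hydroxylases CYP86A2 and CYP86A8 fell by 0.65 ± 0.07 and 0.57 ± 0.08 (adjusted p = 0.000119 and 0.000344). CYP86A2 shares sequence with CYP86A4, and CYP86A8 was not called with unadjusted totals (adjusted p = 0.0583). The 3 that rose were the hydroxylase CYP77A6 (0.50 ± 0.11, adjusted p = 0.00464), its sequence-sharing relative CYP77A4 (0.53 ± 0.15, adjusted p = 0.0158) and BDG1, an epidermal hydrolase (0.22 ± 0.08, adjusted p = 0.0453). CYP77A4 and BDG1 were not called without labelled mutant library 1 (adjusted p = 0.0613 and 0.0618) or without wild type library 3 (adjusted p = 0.0563 and 0.113), which left 1 cutin gene higher. BDG1 lost its call in 7 of 12 alternatives, with adjusted p from 0.001 to 0.131 over all of them. With unadjusted totals 3 cutin genes were lower and 5 higher.

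Of 12 suberin genes, 9 fell, none rose and 3 were not called, with a median of -0.55, beside 26.0% of all tested genes called lower. FAR1, a reductase for suberin alcohols, fell from 33.7 ± 1.55 to 10.9 ± 0.489 CPM (-1.62 ± 0.06, adjusted p = 6.35e-07), the exporter ABCG2 by 0.73 ± 0.12 on the log2 scale (adjusted p = 0.00102), the hydroxylase CYP86A1 by 0.53 ± 0.11 (adjusted p = 0.00406) and the reductase FAR4 by 0.57 ± 0.15 (adjusted p = 0.0122). With unadjusted totals 2 of the 12 were lower, and CYP86A1 and FAR4 were not called (adjusted p = 0.106 and 0.152). Without wild type library 1, or without labelled mutant library 3, 6 of the 12 were lower. CYP86B1, among the 9 that fell, had overlapping groups. Of 16 sphingolipid genes, 8 fell and 8 were not called, with a median of -0.15. They included the long-chain base hydroxylase SBH2 (-1.24 ± 0.09, adjusted p = 1.5e-05), the fatty acid hydroxylases FAH1 (-1.22 ± 0.15, adjusted p = 0.000216) and FAH2 (-0.65 ± 0.06, adjusted p = 5.09e-05), and AT2G19880 (-0.76 ± 0.09, adjusted p = 0.000141). With unadjusted totals 4 sphingolipid genes were lower and 5 higher.

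Of 20 tested regulators of wax, cutin and suberin genes, 4 rose, 6 fell and 10 were not called, with a median of -0.12. SHN3, an activator of cutin and wax genes, rose from 3, 6 and 7 counts to 205, 170 and 141 counts (log2 fold change 4.63 ± 0.24, adjusted p = 2e-06). The cuticle regulator MYB16 (0.60 ± 0.12, adjusted p = 0.00251), the wax activator MYB94 (0.44 ± 0.09, adjusted p = 0.00398) and SPL9 (0.56 ± 0.17, adjusted p = 0.0207) also rose, SPL9 losing its call without labelled mutant library 1 or 3 (adjusted p = 0.0533 and 0.077). DEWAX, a repressor of wax genes, fell from 95.0 ± 8.27 to 58.8 ± 5.30 CPM (-0.69 ± 0.09, adjusted p = 0.00024). MYB30 (-0.58 ± 0.09, adjusted p = 0.000563), MYB96 (-0.50 ± 0.09, adjusted p = 0.00203) and MYB41 (-1.62 ± 0.30, adjusted p = 0.00185), activators of wax or suberin genes, fell as well. MYB41 rested on only 24, 26 and 32 counts in wild type and 11, 16 and 7 counts in the labelled mutant libraries. MYB94 and MYB96 share a stretch of at least 50 bases. With unadjusted totals 9 regulators were higher and 2 lower, and MYB30 and MYB96 were not called (adjusted p = 0.0633 and 0.199).

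**Figure D5:**
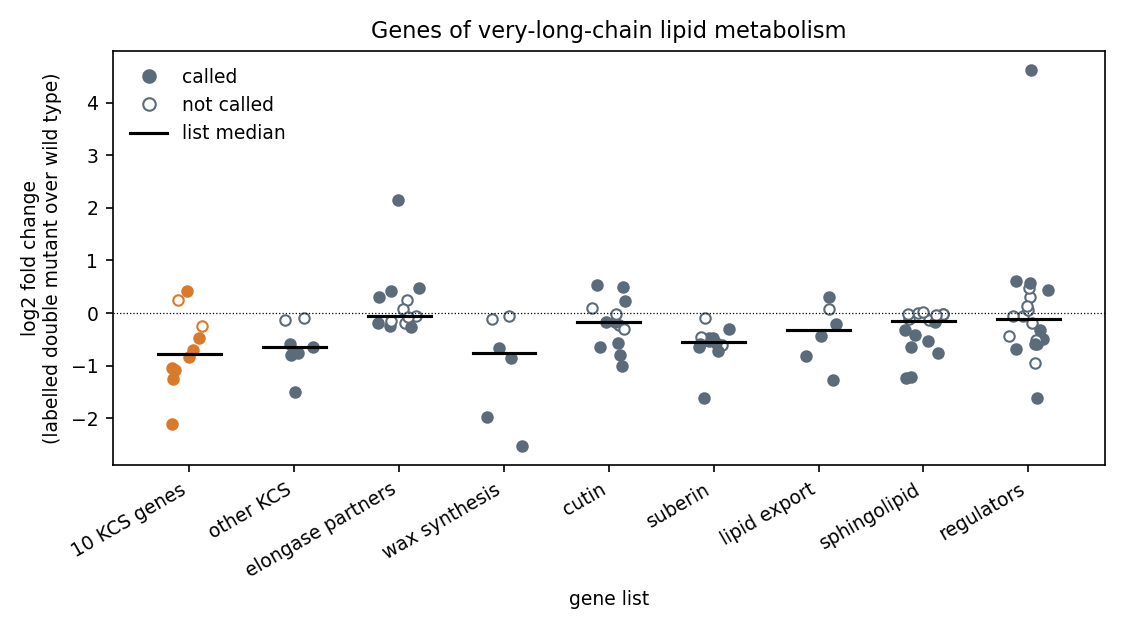
Log2 fold change of each tested gene in the 10 synthases (orange) and in 8 lists of related genes (grey), with list medians as black bars and open points for genes not called at an adjusted p of 0.05. The synthases, other KCS and wax lists have medians between -0.77 and -0.66, and the elongase partners lie around 0 apart from ACC2 at 2.16.

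Markers of the tissues that use these lipids, and of some others, did not all differ between the groups. Their calls are to be read against the 26.3% of all tested genes called higher and 26.0% called lower. The summed level of 5 epidermis markers was 288 to 318 CPM in wild type and 327 to 351 CPM in the labelled mutant libraries. Its members moved in both directions. LTP1, the most abundant, rose from 164 ± 12.97 to 204 ± 9.13 CPM (adjusted p = 0.00786) and ACR4 rose as well (0.35 ± 0.08, adjusted p = 0.00478), PDF1 fell from 28.8 ± 7.35 to 18.2 ± 0.971 CPM (adjusted p = 0.00724), and ATML1 and PDF2 were not called. The 6 endodermis markers summed to 24.8 to 35.5 CPM in wild type, highest in library 1, and to 14.7 to 16.9 CPM in the labelled mutant libraries (5 lower, 1 higher). The 4 guard cell markers lay at 38.4 to 41.5 CPM and 31.8 to 37.8 CPM (3 lower), and the 5 root hair markers at 7.77 to 15.8 CPM and 8.60 to 9.78 CPM (1 higher, 1 lower). The 7 seed markers were low in both groups, at 0.587 to 5.40 CPM in wild type and 0.141 to 2.93 CPM in the labelled mutant libraries. Only 2 of the 7 could be tested, and neither was called. The 4 flower markers were at 1.55 to 1.76 CPM in wild type and 0.257 to 0.494 CPM in the labelled mutant libraries, without overlap, and 1 of them, SEP3, was called lower (-3.31 ± 0.36, adjusted p = 0.000102). SEP3 made up most of that sum in wild type, at 1.36 to 1.48 CPM. PI was not called (0.56 ± 0.37, adjusted p = 0.237), and AP3 and AG could not be tested. No marker was at 0 in all libraries. The part of these markers in the levels of the 10 synthases or of the wax, cutin and suberin genes was not tested.

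Upstream sequence was read for the 10 genes as a description, from features that their choice did not use. The 250 bases before each annotated start (TAIR10.1, in the direction of transcription) were searched on both strands for the letters ACGTG and TAAATGNA. The first is the core bound by abscisic acid responsive factors. The second, with any base at N, takes in the epidermal L1 box but is a looser word. ACGTG was found in 22.9% of 27443 such windows in the genome and in 2 of the 10 genes, KCS6 with 4 matches and KCS4 with 1. That share counts windows with any match, and the share with several matches was not computed. Outside the 10, KCS21, with 0 counts in every library, had 3 matches and KCS7 had 1. TAAATGNA was found in 9.91% of windows and in 2 of the 10, KCS9 and KCS10. AACNG, the core letters of MYB sites, was found in 70.2% of windows and in 7 of the 10 genes. The windows of KCS6 (chr1:25715025-25715274, minus strand), KCS10 (chr2:11173279-11173528, minus strand) and KCS1 (chr1:59216-59465, minus strand) are shown for the higher gene, the most abundant gene and the gene with the largest difference, with matches to these motifs, on either strand and AACNG left out, in capitals:
KCS6: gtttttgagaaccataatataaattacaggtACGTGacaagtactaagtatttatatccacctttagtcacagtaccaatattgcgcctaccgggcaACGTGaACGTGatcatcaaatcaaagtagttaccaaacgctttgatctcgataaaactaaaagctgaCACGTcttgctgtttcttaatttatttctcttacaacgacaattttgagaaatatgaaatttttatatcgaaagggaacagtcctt
KCS10: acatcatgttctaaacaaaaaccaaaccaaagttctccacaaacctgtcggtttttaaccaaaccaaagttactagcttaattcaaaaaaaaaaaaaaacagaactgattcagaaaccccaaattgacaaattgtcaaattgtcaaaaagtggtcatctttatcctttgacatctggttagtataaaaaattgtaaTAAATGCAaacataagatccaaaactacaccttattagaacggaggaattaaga
KCS1: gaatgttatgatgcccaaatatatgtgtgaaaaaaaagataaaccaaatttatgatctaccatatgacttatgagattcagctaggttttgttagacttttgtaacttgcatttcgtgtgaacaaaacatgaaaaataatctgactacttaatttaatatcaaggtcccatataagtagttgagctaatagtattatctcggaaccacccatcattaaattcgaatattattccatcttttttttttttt
KCS6 carried its matches between 86 and 219 bases before the start, KCS10 its L1 box letters 54 bases before it, and the KCS1 window held none of the 3 motifs. A match is a match of letters and not a binding site. KCS4, which also matched ACGTG, was lower in the labelled mutant libraries. The part of these matches in the level of any gene was not tested.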

How the data were processed

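RNA was measured in 3 wild-type and 3 labelled double mutant libraries, grouped by genotype label. Alignment was with STAR to TAIR10, per the submitters' processing notes; neither the version of STAR nor the annotation release is given in the sources used here. Each table deposited by the authors holds raw counts by gene from featureCounts 2.0.0. Per the file headers, counting was on the reverse strand over exons, and a read with several alignments counted fully at each, so totals count alignments. The deposited gene length served only to divide CPM by kb.

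Libraries of a group differed by more than sampling noise (chi-square per degree of freedom of at least 10.9), so none was merged. Differences were fitted with edgeR 4.0.16 in R 4.3.3 (TMM, filterByExpr, quasi-likelihood test with group as the only term, two-sided, Benjamini-Hochberg over 21805 genes, adjusted p threshold 0.05), after a check on simulated counts. SE is the log2 fold change divided by the square root of F. DESeq2 1.42.0 was an alternative. Coordinates of all 21 KCS genes, and of 99.95% of 32548 nuclear genes, were equal in the files and in the TAIR10.1 reference, whose sequences were read and aligned by codon with Biopython 1.88. The 10 genes, lists and markers were chosen with earlier results of these data known. From each list, all genes called in a direction were named if 4 or fewer, otherwise the 4 with the smallest adjusted p. No per-sample column was left unused. Counting floors cover counting error only.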

Additional observations from a re-analysis of the deposited data

How the results depend on the processing

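Under 12 alternatives (the replicate block, RLE size factors, DESeq2, no low-count filter, nuclear genes only, unadjusted totals and 6 fits without 1 library each), between 1 and 2 of the 10 genes were called higher and 6 to 8 lower, a description of genes chosen on this comparison. Unadjusted totals, added after seeing the data, moved all genes to 11418 higher and 2595 lower (5742 and 5679 with TMM). They gave 2 of the 10 genes higher, 1 other KCS gene higher, 0 elongase partners lower, 5 cutin genes higher and 3 lower, 2 suberin genes lower, 2 export genes higher and 2 lower, 5 sphingolipid genes higher and 4 lower, and 9 regulators higher and 2 lower. Values that changed sign were KCS3 (0.06), KCS16 (0.23), KCS19 (0.18), LACS1 (0.052), PAS2 (0.062), CER10 (0.13) and ABCG32 (0.10), since this scaling adds about 0.32 to each. The summed level of the 10 genes was 79.25% of wild type with it and 67.98% with nuclear totals. The KCS6 share was 10.7% and 21.8% without division by length, and 10.2% and 21.5% over the 10 genes only. Leaving out 1 library at a time gave 1 to 4 elongase partners lower, 1 to 3 cutin genes higher and 6 to 10 suberin genes lower. Deviations of same-numbered libraries correlated at 0.192, 0.072 and -0.002, and those of differently numbered libraries at -0.145 to 0.095. With 3 libraries per group these values cannot decide whether the libraries were paired. The replicate block gave 5682 genes higher and 5691 lower, with 8 of the 10 genes lower because KCS3 was added, and 11 suberin genes lower. Genes of few counts (KCS2, KCS17, CER4, AT1G02190, SHN3, MYB41) are limited by depth.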
